A study of Mus musculus with 9 samples.

Results

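The genes described are 43 genes of the mouse that encode subunits of the SWI/SNF chromatin remodellers, the Polycomb repressive complexes, the KMT2 and SETD1 histone methyltransferases, and the acetyltransferases CBP and p300. They were chosen by name, with earlier results of these data known. Of them, 41 could be read among the 22180 genes of the array table that have a feature of their own. Smarcd3 and Actl6a share their features with another gene, and no value is given for them. Where a gene had several features, the one with the highest mean over the 9 arrays was read. The arrays measure which mRNAs of the embryonic cortex come down with Pum2, an RNA-binding translational repressor of the Pumilio family. All 3 groups were made from cortices of CD1 mouse embryos, wild type and 12 to 13 days old. One group is RNA precipitated from the lysate with a rabbit antibody to Pumilio2, one is RNA precipitated with normal rabbit IgG, which measures the background of the method, and one is the total RNA input, with no antibody. Each group holds 3 arrays labelled as biological replicates. The labels do not give the number of embryos in a replicate.

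The remodellers and histone modifiers set which genes of a neural precursor can be transcribed. SWI/SNF, also called BAF, uses ATP to slide or evict nucleosomes, and it comes in canonical (BAF), PBAF and noncanonical forms built on a common core. As precursors become neurons, BAF exchanges several subunits for neuronal ones, with Actl6b, Dpf1 and Dpf3 among the neuronal set and Actl6a and Phf10 among the precursor set. Polycomb complexes silence genes, PRC2 by methylating histone H3 and PRC1 by ubiquitylating histone H2A. Most of the KMT2 and SETD1 enzymes, relatives of Trithorax, place the opposite methyl mark on histone H3 at promoters and enhancers. CBP and p300 acetylate histones at enhancers. All of these act as proteins in the nucleus. What was measured here is how much of their mRNA was recovered in each precipitate, on a log2 scale, so that a difference of 1 is a doubling of signal.

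In the Pum2 precipitate, 14 of the 41 transcripts were higher and 6 lower than in the IgG precipitate (limma, adjusted p under 0.05), against 19.4% and 11.4% of all genes. The members' shares, 34.1% and 14.6%, stand beside 34.1% and 18% among the genes whose mean lay at or above the median of the table, the level at which 39 of the 41 members lie. The shares were thus near those of this brighter part of the table. It is not matched to the members in level, as many of them lie far above the median. In input the members ranged from the 43.7 percentile of genes (Dpf3) to the 99.5 percentile (Ezh2). The same holds wherever shares at or above the median level are given below. The median difference from IgG was 0.11 over the members and 0.04 over all genes. Against input, 23 members were higher and 4 lower with Pum2, which is 56.1% and 9.76%, where 21.6% and 13.1% of all genes were called (37% and 21.9% at or above the median level), and the median difference was 0.44 over the members and 0.065 over all genes. In the IgG precipitate itself 15 members were higher and 2 lower than in input, or 36.6% and 4.88%, where 8.25% and 9.72% of all genes were called (13.8% and 17.8% at or above the median level), with medians of 0.06 over the members and 0.016 over all genes. The comparisons share arrays pairwise, so their counts are not independent of each other. Groups whose arrays did not overlap were common. The Pum2 arrays lay all above IgG for 46.3% of members and all below for 19.5%. Among genes at or above the median level these shares were 41.7% and 22.7% (25.9% and 15.4% of all genes). Against input they were 56.1% and 17.1%, beside 44.4% and 26.5% at that level. For IgG over input they were 43.9% and 17.1%, beside 23.9% and 27.4%. The split against IgG depended on scaling, with 12 higher and 7 lower after another quantile normalization and 11 higher and 9 lower with arrays centred on the brighter genes. Over all genes the higher share of the calls against IgG was 63%, 53.5% and 46.9% under these settings. Each difference is one of recovery relative to the other RNAs of a sample. As the tissue was measured in bulk, the cell types that a recovered mRNA came from cannot be told apart.

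**Figure D1:**
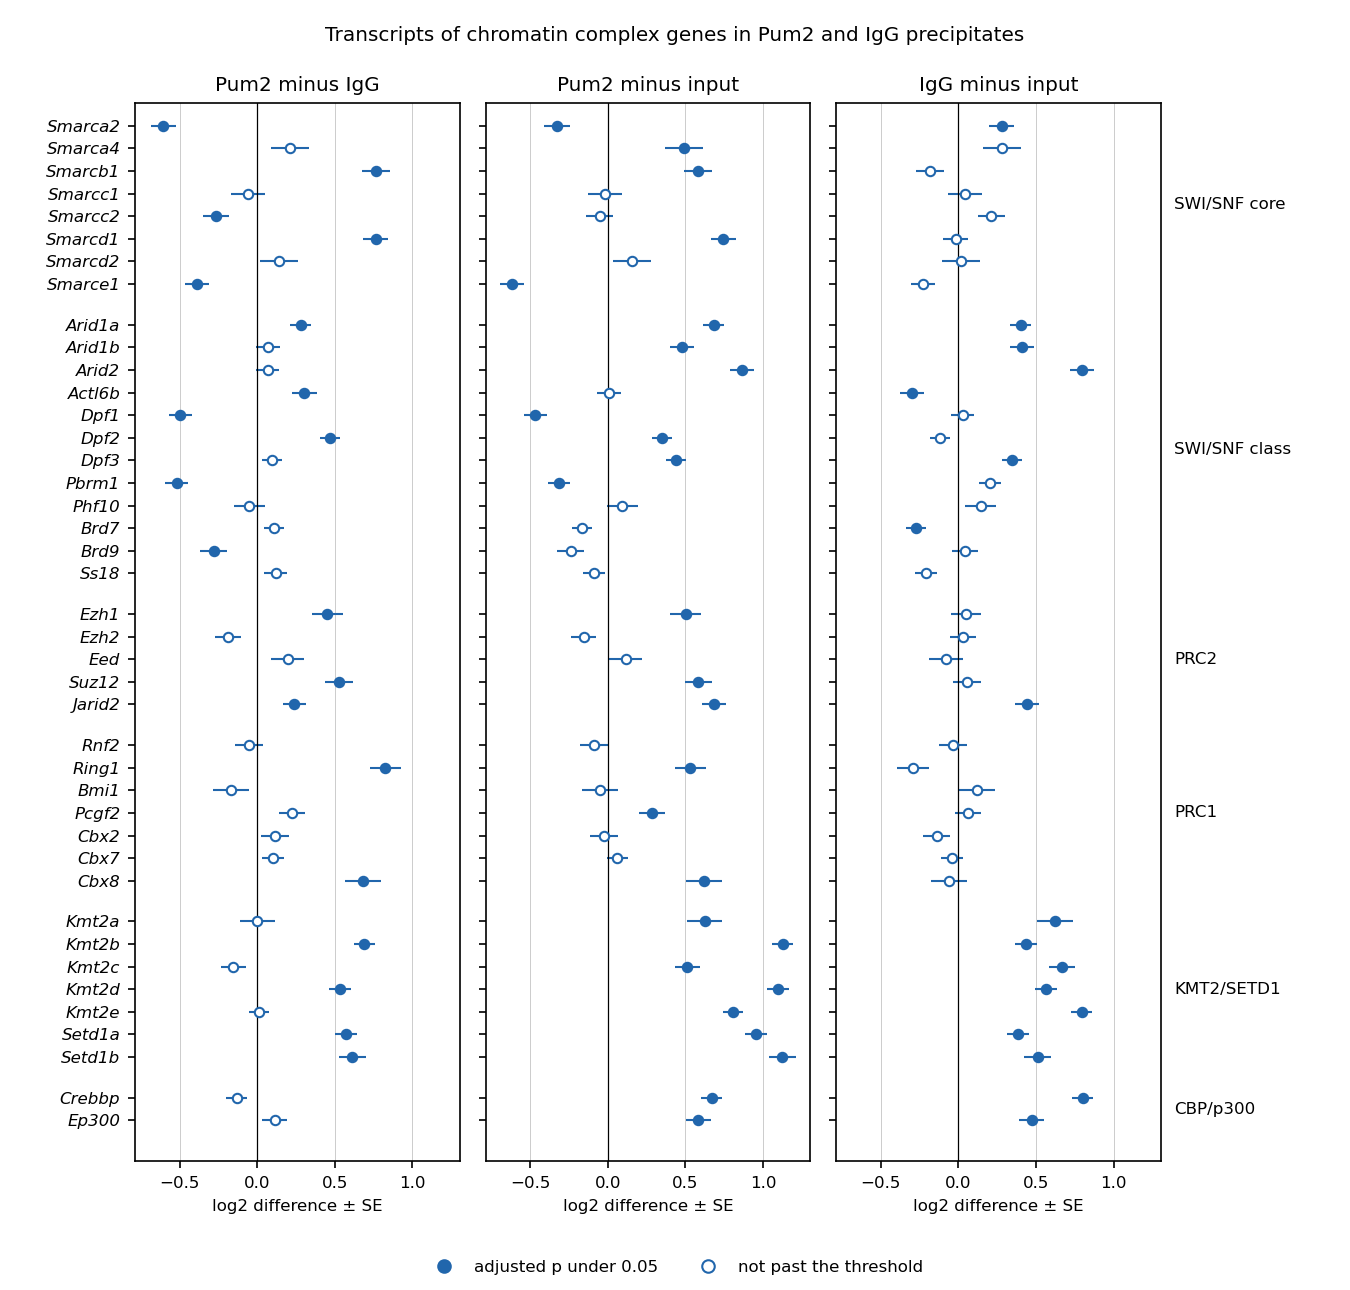
Log2 differences of the 41 measured genes, grouped by complex from top to bottom, for Pum2 minus IgG (left), Pum2 minus input (middle) and IgG minus input (right); points are differences, filled where the adjusted p is under 0.05, and bars are standard errors from limma (n = 3 arrays per group). The KMT2 and SETD1 genes and the CBP and p300 genes all lie to the right of 0 in the middle and right panels, while in the left panel Kmt2b, Kmt2d, Setd1a and Setd1b lie to the right and the other 5 of them near 0.

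The histone methyltransferase genes separated into those recovered above IgG and those that were not. Kmt2b, Kmt2d, Setd1a and Setd1b exceeded IgG in the Pum2 precipitate by 0.53 to 0.69, whereas Kmt2a and Kmt2e stood at 0.00 and 0.01, of which Kmt2a changed sign under both rescalings and Kmt2e with arrays centred on the brighter genes. Against IgG, 4 of the 7 were called higher, or 57.1%, beside 34.1% of genes at or above the median level. All 7 were higher than in input in both precipitates, with medians of 0.95 in Pum2 over input and 0.56 in IgG over input. Among genes at or above the median level, 37% and 13.8% were called higher in these comparisons (21.6% and 8.25% of all genes). In limma 0 of the 7 were lower in any of the 3 comparisons, and 0 at an unadjusted p under 0.05. After quantile normalization and after centring on the brighter genes, Kmt2c was called lower than in IgG (-0.26 and -0.25).

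The Kmt2b signal was 9.77, 9.87 and 9.76 in the Pum2 precipitates, 9.13, 9.06 and 9.13 in the IgG precipitates and 8.70, 8.63 and 8.68 in input. The groups did not overlap, and the Pum2 arrays were the highest. Kmt2b encodes an enzyme that marks promoters of developmental genes, and its difference was 0.69 ± 0.07 from IgG (1.61-fold, limma adjusted p = 5.47e-05) and 1.13 ± 0.07 from input (2.18-fold, adjusted p = 1.69e-06). Kmt2d, which encodes a methyltransferase that acts at enhancers, gave 9.95, 9.91 and 9.91 in the Pum2 precipitates, 9.37, 9.40 and 9.40 in the IgG precipitates and 8.89, 8.72 and 8.86 in input. The 3 groups were again separate and in the same order, with 0.53 ± 0.07 from IgG (adjusted p = 0.000302) and 1.10 ± 0.07 from input. Setd1a and Setd1b encode the catalytic subunits of the complexes that place most trimethylation at active promoters. Setd1a had signals of 9.69, 9.85 and 9.71 in the Pum2 precipitates, 9.19, 9.19 and 9.16 in the IgG precipitates and 8.74, 8.81 and 8.83 in input. Setd1b had signals of 9.45, 9.72 and 9.44 in the Pum2 precipitates, 8.91, 8.95 and 8.92 in the IgG precipitates and 8.37, 8.42 and 8.46 in input. For both genes the groups did not overlap, with Pum2 highest and input lowest. Their differences from IgG were 0.57 ± 0.07 and 0.61 ± 0.09 (adjusted p = 0.00022 and 0.000439), and from input 0.95 ± 0.07 and 1.12 ± 0.09. IgG was itself above input for these 4 genes by 0.38 to 0.56.

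**Figure D2:**
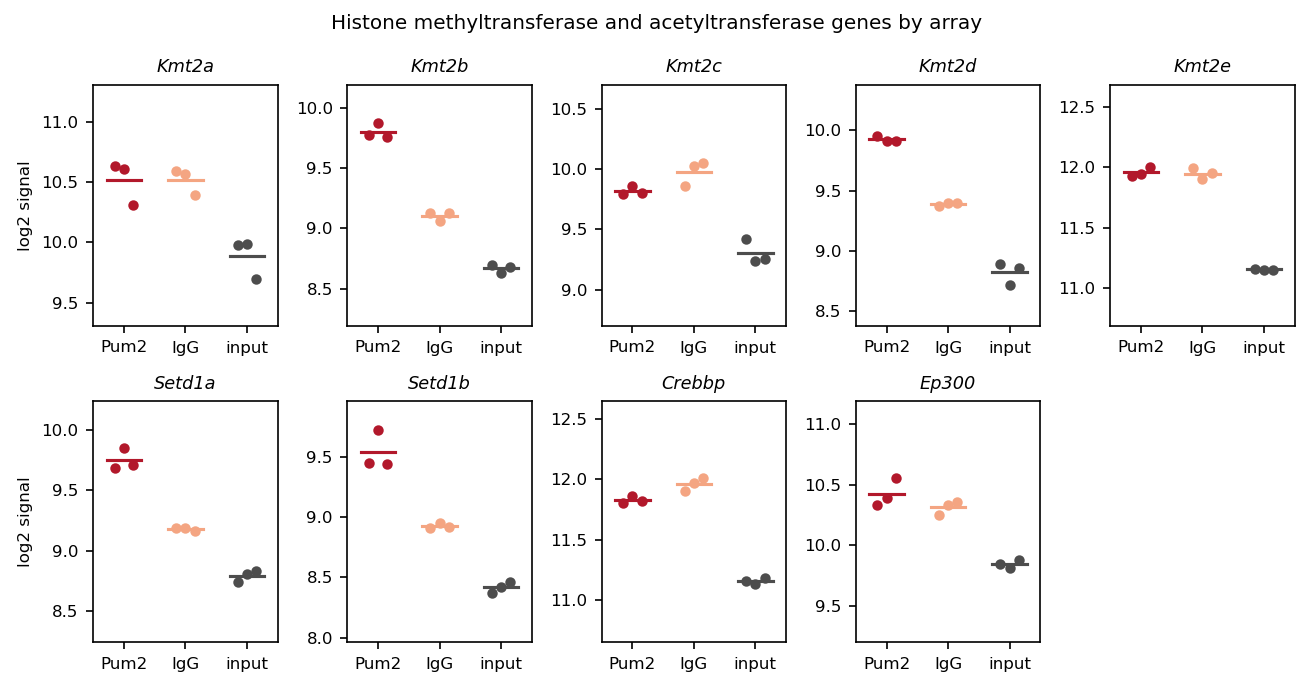
Log2 signal of each array for the KMT2 and SETD1 genes and for Crebbp and Ep300; points are single arrays and lines are group means (n = 3 each), and every panel spans 2 log2 units. Input is lowest in all 9 panels, and the Pum2 arrays stand apart above IgG for Kmt2b, Kmt2d, Setd1a and Setd1b.

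The other methyltransferase genes were above input in both precipitates and did not pass the test against IgG in the deposited values. Kmt2a, the founding member of the family, which encodes an activator of Hox genes, had signals of 10.63, 10.61 and 10.31 in the Pum2 precipitates, 10.59, 10.57 and 10.39 in the IgG precipitates and 9.98, 9.99 and 9.70 in input. Kmt2c, the partner of Kmt2d at enhancers, had signals of 9.79, 9.86 and 9.80 in the Pum2 precipitates, 9.86, 10.02 and 10.05 in the IgG precipitates and 9.42, 9.24 and 9.25 in input. In both genes the Pum2 and IgG arrays overlapped, and input lay below all 6 of them. Kmt2a differed from input by 0.62 ± 0.11 with Pum2 and 0.62 ± 0.11 with IgG (adjusted p = 0.00167 and 0.00434). For Kmt2c the differences were 0.51 ± 0.08 and 0.67 ± 0.08, and its difference of Pum2 from IgG was -0.15 ± 0.08 (adjusted p = 0.2). Kmt2e, a divergent relative of the family, gave 11.93, 11.94 and 12.00 in the Pum2 precipitates, 11.99, 11.90 and 11.95 in the IgG precipitates and 11.16, 11.15 and 11.15 in input. Pum2 and IgG overlapped, and both lay above input, with a difference of 0.81 ± 0.07 for Pum2 (adjusted p = 1.01e-05).

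Crebbp and Ep300, which are acetyltransferase and not methyltransferase genes, followed the same course. Crebbp had signals of 11.80, 11.86 and 11.82 in the Pum2 precipitates, 11.90, 11.97 and 12.01 in the IgG precipitates and 11.16, 11.13 and 11.18 in input. Ep300 had signals of 10.33, 10.39 and 10.56 in the Pum2 precipitates, 10.25, 10.33 and 10.36 in the IgG precipitates and 9.84, 9.81 and 9.88 in input. For Crebbp the Pum2 arrays lay just below the IgG arrays without overlap, by -0.13 ± 0.07, which was not past the threshold (adjusted p = 0.183) except with arrays centred on the brighter genes (-0.23). Against input, Crebbp was higher by 0.67 ± 0.07 in Pum2 and 0.80 ± 0.07 in IgG, and Ep300 by 0.58 ± 0.08 and 0.47 ± 0.08 (largest adjusted p = 0.00274).

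The SWI/SNF genes moved in both directions. Of 20 measured, 5 were higher and 6 lower with Pum2 than with IgG, or 25% and 30%, where 34.1% and 18% of genes at or above the median level were called. Relative to input, 8 were higher and 4 lower with Pum2, or 40% and 20%, beside 37% and 21.9% of such genes. With arrays centred on the brighter genes the counts were 3 higher and 6 lower against IgG and 8 higher and 6 lower against input. In IgG over input 5 were higher and 2 lower, or 25% and 10%, beside 13.8% and 17.8% of genes at or above the median level. The core subunits Smarcb1 and Smarcd1 were the most enriched over IgG, and the ATPase gene Smarca2, the PBAF gene Pbrm1 and the neuronal BAF gene Dpf1 the most depleted.

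Smarcb1, which encodes a core subunit lost in rhabdoid tumours, had signals of 10.58, 10.43 and 10.61 in the Pum2 precipitates, 9.84, 9.65 and 9.84 in the IgG precipitates and 10.03, 9.82 and 10.03 in input. Smarcd1, the gene of a core subunit that links the complex to transcription factors, had signals of 11.02, 11.04 and 11.14 in the Pum2 precipitates, 10.24, 10.30 and 10.37 in the IgG precipitates and 10.35, 10.21 and 10.41 in input. In both genes the Pum2 arrays lay above all other arrays, while IgG and input overlapped. Smarcb1 differed by 0.76 ± 0.09 from IgG and 0.58 ± 0.09 from input (adjusted p = 0.000158 and 0.000618). Smarcd1 differed by 0.76 ± 0.08 and 0.74 ± 0.08 (adjusted p = 7.68e-05 and 5.44e-05), and neither gene passed the test in IgG over input (-0.18 and -0.02).

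The 2 alternative ATPase genes of the complex gave differences of opposite sign from IgG, of which that of Smarca2 passed the test. Smarca2, which encodes BRM, had signals of 7.69, 7.79 and 7.70 in the Pum2 precipitates, 8.21, 8.31 and 8.47 in the IgG precipitates and 8.06, 8.03 and 8.07 in input. Its Pum2 arrays were below the input arrays and these below the IgG arrays, with no overlap. The difference was -0.61 ± 0.08 from IgG (adjusted p = 0.00031), -0.33 ± 0.08 from input (adjusted p = 0.00931) and 0.28 ± 0.08 in IgG over input (adjusted p = 0.0381). The call in IgG over input ended in a fit of the 2 groups alone, and without any 1 Input array, IgG replicate 2 or 3, or Pum2 replicate 1 or 3 (0.21 to 0.29). Smarca4, which encodes BRG1, had signals of 10.61, 10.44 and 10.90 in the Pum2 precipitates, 10.41, 10.35 and 10.54 in the IgG precipitates and 10.18, 10.00 and 10.29 in input. It was higher than in input by 0.49 ± 0.12 (adjusted p = 0.00962), and its Pum2 and IgG arrays overlapped (0.21 ± 0.12, adjusted p = 0.23).

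Among other core genes, Smarce1, whose product is a DNA-binding subunit, had signals of 7.85, 7.82 and 7.69 in the Pum2 precipitates, 8.16, 8.20 and 8.17 in the IgG precipitates and 8.49, 8.31 and 8.40 in input. The 3 groups were separate, with Pum2 lowest and input highest. It fell by 0.39 ± 0.08 against IgG and by 0.61 ± 0.08 against input (adjusted p = 0.0035 and 0.000148). The scaffold genes Smarcc1 and Smarcc2 stood at -0.06 ± 0.11 and -0.26 ± 0.09 against IgG. Smarcc2 was past the threshold there (adjusted p = 0.0397), but not in a fit of the 2 groups alone or without any 1 of 7 arrays, Input replicates 1 and 3, IgG replicates 1 and 3 and the 3 Pum2 replicates (-0.28 to -0.22). Smarcd2 passed in no comparison (0.14 from IgG, 0.16 from input).

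**Figure D3:**
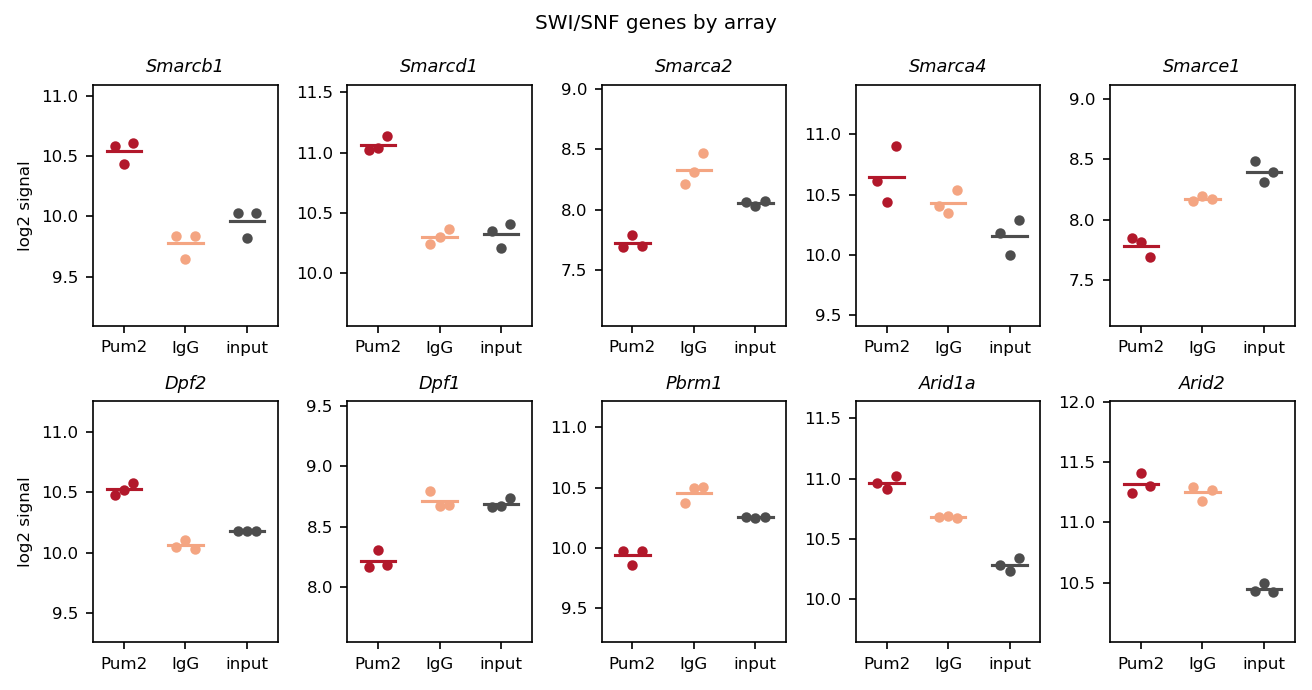
Log2 signal of each array for 10 SWI/SNF genes; points are single arrays and lines are group means (n = 3 each), and every panel spans 2 log2 units. The Pum2 arrays lie above all others for Smarcb1, Smarcd1, Dpf2 and Arid1a and below all others for Smarca2, Smarce1, Dpf1 and Pbrm1, while for Arid2 the Pum2 and IgG arrays lie together above input.

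The DPF genes encode subunits that read modified histones, and they differed by member. Dpf2, the broadly used member, had signals of 10.48, 10.52 and 10.58 in the Pum2 precipitates, 10.05, 10.10 and 10.03 in the IgG precipitates and 10.18, 10.18 and 10.18 in input. Dpf1, the neuronal member, had signals of 8.17, 8.31 and 8.18 in the Pum2 precipitates, 8.80, 8.67 and 8.68 in the IgG precipitates and 8.66, 8.67 and 8.74 in input. The Pum2 arrays were highest for Dpf2 and lowest for Dpf1, and in both genes they overlapped neither control. Dpf2 was higher by 0.47 ± 0.07 than IgG and 0.35 ± 0.07 than input (adjusted p = 0.000439 and 0.00205). Dpf1 stood at -0.49 ± 0.07 and -0.47 ± 0.07 (adjusted p = 0.000642 and 0.000678). Dpf3, also of the neuronal set and of mean signal below the median gene, had 6.08, 6.04 and 6.11 in the Pum2 precipitates, 5.95, 5.97 and 6.01 in the IgG precipitates and 5.65, 5.63 and 5.62 in input. It was higher than input by 0.44 ± 0.06 with Pum2 and 0.34 ± 0.06 with IgG (adjusted p = 0.000405 and 0.005), and stood at 0.10 ± 0.06 against IgG (adjusted p = 0.306).

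Actl6b, the neuronal actin-related subunit, had signals of 7.50, 7.60 and 7.61 in the Pum2 precipitates, 7.25, 7.20 and 7.36 in the IgG precipitates and 7.65, 7.50 and 7.56 in input. IgG lay below the other groups, which overlapped. Its difference from IgG was 0.30 ± 0.08 (adjusted p = 0.0134, lost with centring at 0.21), against 0.01 ± 0.08 from input and -0.30 ± 0.08 in IgG over input. The value of IgG over input (adjusted p = 0.0234) was not past the threshold without Input replicate 1 or 3 or IgG replicate 1 or 2 (-0.30 to -0.26). Phf10, of the precursor set, did not pass in any comparison (-0.05 for Pum2 against IgG, 0.09 for Pum2 against input and 0.14 for IgG against input). The neuronal genes thus gave values of both signs against IgG and against input.

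The ARID genes, whose large DNA-binding subunits define BAF (Arid1a and Arid1b) or PBAF (Arid2), were higher than input in both precipitates. Arid1a had signals of 10.96, 10.91 and 11.02 in the Pum2 precipitates, 10.68, 10.69 and 10.67 in the IgG precipitates and 10.28, 10.23 and 10.34 in input. The groups did not overlap. It was higher by 0.68 ± 0.07 than input (adjusted p = 3.22e-05) and by 0.28 ± 0.07 than IgG (adjusted p = 0.0103), a call lost after quantile normalization (0.17) or centring (0.19). Arid2 had signals of 11.24, 11.41 and 11.30 in the Pum2 precipitates, 11.29, 11.18 and 11.27 in the IgG precipitates and 10.43, 10.50 and 10.42 in input. Pum2 and IgG overlapped far above input, with 0.86 ± 0.07 and 0.80 ± 0.07 over input (adjusted p = 1.35e-05 and 0.000176) and 0.07 ± 0.07 between them. Arid1b had signals of 9.84, 9.88 and 9.72 in the Pum2 precipitates, 9.77, 9.71 and 9.74 in the IgG precipitates and 9.25, 9.29 and 9.45 in input. Its course was like that of Arid2 and of smaller size (0.48 ± 0.08, 0.41 ± 0.08 and 0.07 ± 0.08).

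Pbrm1, the bromodomain subunit that gives PBAF its name, had signals of 9.98, 9.86 and 9.98 in the Pum2 precipitates, 10.37, 10.50 and 10.51 in the IgG precipitates and 10.26, 10.25 and 10.26 in input. Here Pum2 was lowest and IgG highest, without overlap. It fell by 0.52 ± 0.07 against IgG and by 0.32 ± 0.07 against input (adjusted p = 0.00043 and 0.00654). Brd7, another bromodomain gene of PBAF, had signals of 9.72, 9.74 and 9.74 in the Pum2 precipitates, 9.59, 9.61 and 9.67 in the IgG precipitates and 9.92, 9.91 and 9.86 in input. It was lower in IgG than in input by 0.27 ± 0.07 (adjusted p = 0.0161), a call that ended without Input replicate 1 or 2 (both -0.26). With Pum2 it stood at -0.17 ± 0.07 against input, which passed the threshold under quantile normalization, centring, an intensity trend with a robust prior, or a filter to the brighter genes. Brd9, of the noncanonical form, differed from IgG by -0.28 ± 0.09 (adjusted p = 0.0309), which was not past the threshold without input in the fit or without IgG replicate 2 or 3 or Pum2 replicate 1 or 2 (-0.30 to -0.20). Against input it stood at -0.24 ± 0.09 (adjusted p = 0.0543), with the Pum2 arrays below without overlap, and it was called lower under both rescalings, with the intensity trend, with the filter to brighter genes and without Pum2 replicate 3 (-0.31 to -0.24). Ss18, shared by BAF and the noncanonical form, stood at 0.12 against IgG and -0.09 against input.

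Of the 12 Polycomb genes measured, 5 were higher with Pum2 than with IgG, or 41.7%, beside 34.1% of genes at or above the median level. Against input 6 were higher, or 50%, beside 37% of such genes. By limma 0 were lower in either comparison, where 18% and 21.9% of such genes were, and at an unadjusted p under 0.05 there were 1 and 0 lower. With arrays centred on the brighter genes Ezh2 was called lower than IgG (-0.28), and so it was with an intensity trend and a robust prior (-0.19). In IgG over input 1 Polycomb gene, Jarid2, was called higher (8.33%) and 0 lower. Of genes at or above the median level, 13.8% and 17.8% were called higher and lower there.

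In PRC2, the catalytic gene Ezh1 had signals of 8.38, 8.54 and 8.47 in the Pum2 precipitates, 8.23, 7.95 and 7.86 in the IgG precipitates and 7.99, 7.96 and 7.93 in input. Suz12, the scaffold of the complex, had signals of 10.06, 9.97 and 10.13 in the Pum2 precipitates, 9.51, 9.66 and 9.42 in the IgG precipitates and 9.50, 9.36 and 9.54 in input. For both, every Pum2 array was above every other array and the controls overlapped. Ezh1 was higher by 0.45 ± 0.10 than IgG and 0.50 ± 0.10 than input (adjusted p = 0.0056 and 0.00248), and Suz12 by 0.53 ± 0.09 and 0.58 ± 0.09 (adjusted p = 0.00129 and 0.000502). Ezh2, the catalytic subunit known for holding back neuronal genes in dividing precursors, had signals of 11.99, 11.78 and 12.05 in the Pum2 precipitates, 12.17, 12.07 and 12.14 in the IgG precipitates and 12.11, 12.07 and 12.11 in input. Its Pum2 arrays were slightly the lowest, and neither -0.19 ± 0.08 from IgG nor -0.16 ± 0.08 from input was past the threshold (adjusted p = 0.121 and 0.186). Eed, which binds the mark that PRC2 makes, stood at 0.20 ± 0.11 and 0.11 ± 0.11, and passed against IgG without Pum2 replicate 2 (0.31). Jarid2, an accessory subunit that guides PRC2, had signals of 10.17, 10.07 and 10.24 in the Pum2 precipitates, 9.95, 9.84 and 9.96 in the IgG precipitates and 9.53, 9.50 and 9.40 in input. It was higher than input by 0.68 ± 0.08 with Pum2 and 0.44 ± 0.08 with IgG (adjusted p = 7.05e-05 and 0.00315). Its difference from IgG, 0.24 ± 0.08 (adjusted p = 0.0378), was lost under both rescalings (0.12 and 0.15), in a fit of the 2 groups alone, and in fits without Input replicate 2, any 1 IgG array, or Pum2 replicate 1 or 3 (0.20 to 0.26).

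**Figure D4:**
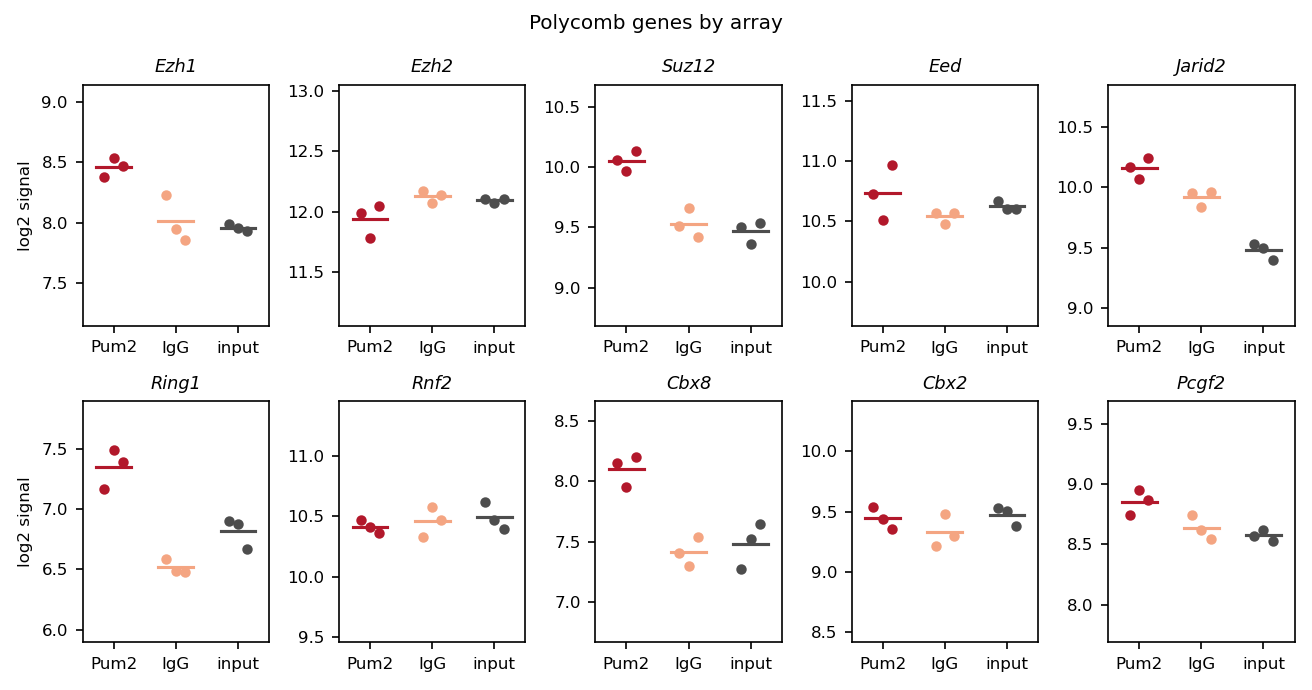
Log2 signal of each array for 10 Polycomb genes, PRC2 above and PRC1 below; points are single arrays and lines are group means (n = 3 each), and every panel spans 2 log2 units. The Pum2 arrays stand above both controls for Ezh1, Suz12, Jarid2, Ring1 and Cbx8 and, by a very narrow margin over IgG, for Pcgf2. The groups overlap for Rnf2 and Cbx2.

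In PRC1, Ring1 gave the largest difference from IgG of the 41 members in the deposited values. Ring1 encodes 1 of the alternative ubiquitin ligases of the complex, and its signals were 7.17, 7.49 and 7.39 in the Pum2 precipitates, 6.59, 6.49 and 6.48 in the IgG precipitates and 6.90, 6.88 and 6.67 in input. The Pum2 arrays were above input and input above IgG, with no overlap. The difference was 0.83 ± 0.10 from IgG (1.77-fold, adjusted p = 0.000184) and 0.53 ± 0.10 from input (adjusted p = 0.00204). Its partner gene Rnf2 passed in no comparison, with -0.05 ± 0.09 and -0.09 ± 0.09. Cbx8, a chromodomain gene, had signals of 8.15, 7.95 and 8.20 in the Pum2 precipitates, 7.41, 7.30 and 7.54 in the IgG precipitates and 7.27, 7.52 and 7.65 in input. Pum2 was above both controls, which overlapped, with 0.68 ± 0.11 relative to IgG and 0.62 ± 0.11 relative to input (adjusted p = 0.00128 and 0.00174). The other chromodomain genes Cbx2 and Cbx7 stood at 0.11 and 0.10 against IgG and -0.03 and 0.06 against input, none past the threshold, and Cbx7 has a mean signal below the median gene. Pcgf2 was higher than input by 0.28 ± 0.08 (adjusted p = 0.0219), a call lost under both scalings (0.21 each) and without Input replicate 1 or 3 or Pum2 replicate 2 or 3 (0.24 to 0.28). Against IgG Pcgf2 stood at 0.23 ± 0.08 (adjusted p = 0.0657), and it passed with the filter to brighter genes, with the intensity trend, and without IgG replicate 1 or Pum2 replicate 1 (0.23 to 0.28). Bmi1, its alternative in the complex, stood at -0.17 ± 0.12 against IgG and -0.05 ± 0.12 against input, neither past the threshold. By limma 0 of the 7 PRC1 genes were called in IgG over input. Of genes at or above the median level, 13.8% were called higher and 17.8% lower in that comparison. At an unadjusted p under 0.05, 0 of the 7 were higher and 1 lower (Ring1, -0.29). Ring1 was called lower there with the filter to brighter genes (adjusted p = 0.0281) and without Input replicate 3 (-0.37, adjusted p = 0.0475).

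Paired genes of one role were also compared within arrays, by subtracting the second gene's log2 signal from the first's on each array. This leaves out a constant shift of the array, but not a scaling that differs with signal level. Some pairs differ widely in level, such as Ezh1 and Ezh2 with means of 8.1 and 12.1. There were 13 such pairs and 3 comparisons of groups, or 39 exact permutation tests (two-sided). With 3 against 3 arrays no p can fall below 0.1, and the smallest adjusted p was 0.156, so none can pass 0.05 and the values are given as sizes. Smarca2 minus Smarca4 lay between -3.20 and -2.65 in the Pum2 precipitates and between -2.20 and -2.04 in the IgG precipitates. The change in this difference was -0.82 ± 0.16 (SE) for Pum2 over IgG, -0.82 ± 0.17 for Pum2 over input and 0.00 ± 0.09 for IgG over input. Dpf1 minus Dpf2 gave -0.96 ± 0.07 for Pum2 over IgG, as it lay between -2.40 and -2.21 with Pum2 and between -1.43 and -1.25 with IgG. Ezh1 minus Ezh2 gave 0.64 ± 0.15 and Ring1 minus Rnf2 0.88 ± 0.16. Kmt2a minus Kmt2b gave -0.69 ± 0.12 and Kmt2c minus Kmt2d -0.69 ± 0.06. In each of these pairs the Pum2 and IgG arrays did not overlap (exact permutation p = 0.1, adjusted p = 0.156). The same was true of 11 of the 13 pairs in all. Pcgf2 minus Bmi1 gave 0.40 ± 0.14, Dpf3 minus Dpf2 -0.37 ± 0.04 and Smarcc1 minus Smarcc2 0.20 ± 0.09. The distances were of like size or smaller for Arid1a minus Arid1b (0.21 ± 0.08) and Crebbp minus Ep300 (-0.24 ± 0.07), and for Setd1a minus Setd1b (-0.04 ± 0.04) and Cbx7 minus Cbx2 (-0.01 ± 0.11) the arrays overlapped.

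**Figure D5:**
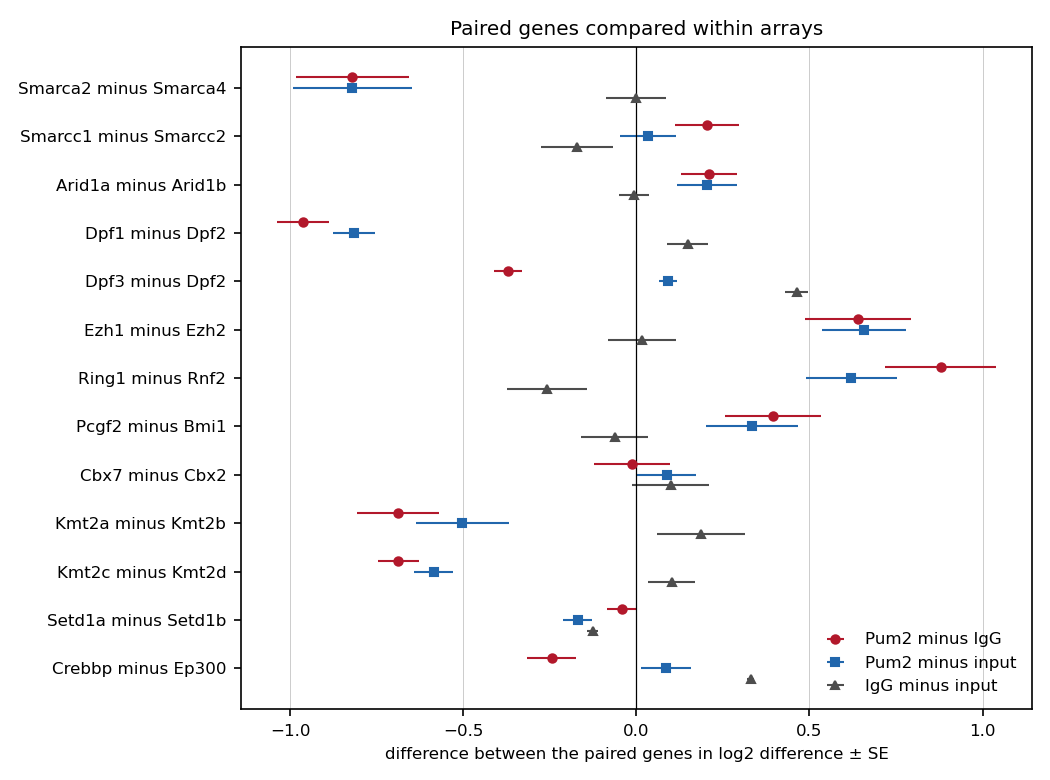
Difference between paired genes in their log2 differences, for Pum2 minus IgG (circles), Pum2 minus input (squares) and IgG minus input (triangles); bars are standard errors over arrays (n = 3 per group). The circles and squares of Smarca2, Dpf1, Kmt2a and Kmt2c lie to the left of 0 and those of Ezh1 and Ring1 to the right, each beyond its bar.

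Of 53 further genes whose products work with or against these complexes, 49 had a feature of their own. Like the members, these lists were chosen with earlier results of these data known. Against IgG, 17 were higher and 9 lower with Pum2, and the shares of 34.7% and 18.4% lay near the 34.1% and 18% of genes at or above the median level. Against input 22 were higher and 10 lower, or 44.9% and 20.4%, beside 37% and 21.9% of such genes. In IgG over input 12 were higher and 6 lower, or 24.5% and 12.2%, beside 13.8% and 17.8% of such genes. The partners of the KMT2 and SETD1 enzymes gave 8 higher and 1 lower of 13 against IgG (61.5% and 7.69%, beside 34.1% and 18%) and 9 higher and 2 lower against input (69.2% and 15.4%, beside 37% and 21.9%). Men1, whose product menin anchors KMT2A and KMT2B, was higher by 1.00 ± 0.07 than IgG and 1.03 ± 0.07 than input (adjusted p = 1.16e-05 and 4.62e-06). Rbbp5, a subunit shared by most of these enzymes, was higher by 0.71 ± 0.07 and 0.87 ± 0.07. Wdr82, of the SETD1 complexes, was higher by 0.80 ± 0.09 than input. Dpy30, a small subunit also shared by most of these enzymes, fell by 0.49 ± 0.09 against IgG and by 1.17 ± 0.09 against input. In IgG over input it stood at -0.67 ± 0.09. The 11 further PRC1 genes gave 2 higher and 3 lower than IgG (18.2% and 27.3%) and 2 higher and 6 lower than input (18.2% and 54.5%), beside the same shares of genes at that level. Pcgf3, of a variant PRC1, stood at -1.99 ± 0.11 and -1.57 ± 0.11 with Pum2 and at 0.42 ± 0.11 in IgG over input (adjusted p = 2.51e-06, 3.58e-06 and 0.0236). Pcgf3 has 2 features, and no value is given for the one of lower mean. Yaf2, also of variant PRC1, fell by 1.05 ± 0.10 against IgG and by 1.44 ± 0.10 against input, and the polyhomeotic gene Phc1 fell by 0.56 ± 0.07 against IgG. L3mbtl2, of a variant PRC1, and Phc2, another polyhomeotic gene, were higher than IgG by 0.74 ± 0.09 and 0.66 ± 0.10. In IgG over input the largest of these differences were Bcl11b, a BAF-associated transcription factor that is also a neuronal marker, at 0.86, Ss18l1 at 0.53, the demethylase gene Kdm6b at 0.47 and Ncoa6 at 0.46 on the higher side, and Dpy30, Bcl7b at -0.62, Pcgf1 at -0.60 and Pagr1a at -0.44 on the lower.

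The Pum2 transcript itself, the mRNA of the precipitated protein, was 0.91 ± 0.09 above input with Pum2 and 0.61 ± 0.09 with IgG. In Pum2 over IgG it was higher by 0.30 ± 0.09 (limma adjusted p = 0.0314), and the arrays did not overlap. In the tissue check, all 9 measured radial precursor markers, all 4 intermediate progenitor markers and all 7 neuronal markers had means at or above the median gene. So did all 7 endothelial and pericyte markers, all 7 meningeal and mesenchymal markers and Hbb-y, the 1 red blood cell marker measured (mean 10.01). In the other lists, 3 of 6 of the ganglionic eminence, 4 of 7 of microglia and 0 of 5 of astrocytes and oligodendrocytes did. The radial precursor markers summed to a linear signal of 12210 to 13071 in Pum2, 9460 to 10259 in IgG and 10576 to 11014 in input (4 higher and 0 lower of 9 against IgG in limma, 5 and 0 at an unadjusted p under 0.05, and 5 higher and 2 lower against input, the lower ones being Hes5 and Fabp7). The neuronal markers summed to 9003 to 9327, 9768 to 10593 and 8236 to 8893 in Pum2, IgG and input (1 higher and 2 lower of 7 against IgG, 4 higher and 2 lower against input). Markers of vessels and meninges were mostly higher in the Pum2 precipitate than in input. Of the 7 endothelial and pericyte markers, 3 were higher and 1 lower than IgG and 5 higher and 1 lower than input, with a summed linear signal of 2863 to 3078 in Pum2, 1926 to 2334 in IgG and 1861 to 1945 in input. Of the 7 meningeal and mesenchymal markers, 4 were higher than IgG and 7 higher than input, with sums of 1879 to 2022, 1310 to 1598 and 1212 to 1255 in Pum2, IgG and input. For all of these lists, the shares of genes at or above the median level called higher and lower were 34.1% and 18% against IgG and 37% and 21.9% against input. The part of these cell types in the values of the chromatin genes was not tested. The median SD between replicates over the 41 members was 0.082 in Pum2, 0.062 in IgG and 0.065 in input. Within a group, Pearson r between arrays across genes, which are not independent replicates, was 0.994 to 0.996. The number of arrays limits the precision.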

How the data were processed

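RNA from 9 samples of embryonic mouse cortex was hybridised to Affymetrix Mouse Gene 2.0 ST arrays, 1 array each. The authors deposited log2 values normalized by RMA in the Affymetrix Expression Console, per the submitters' processing notes; their versions, the annotation release and the genome build are not stated there. RMA scales the arrays to a common distribution, so that each difference is relative to the other RNAs of its sample and not an absolute amount.

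Of 41345 features, 23521 had 1 gene symbol in the platform annotation, 1814 had several and 16010 had none; only the first were used, as 22180 genes, each by its feature of highest mean over the 9 arrays (1082 genes had more than 1). A linear model over all 9 arrays and all genes was fitted with limma 3.58.1 (R 4.3.3), with Benjamini-Hochberg adjustment over all genes and a threshold of 0.05; errors after ± are standard errors. Pairs of genes were compared by exact permutation tests. The members and all gene lists were chosen with earlier results of these data known. All members are described; of the further genes, up to 4 called in each direction with the largest differences are named. Simulated data held 22180 genes, with 100 changed genes of each size. For Pum2 over IgG, 81% of log2 changes of 1 and 40% of changes of 0.5 were called. Far fewer genes were changed there than were called in the data (19.4% higher and 11.4% lower), so the adjusted threshold was stricter. These shares therefore do not measure how many changes of that size were missed here. No label says that replicates are separate litters, so p-values measure the spread between these samples, which may be partly technical. Alternatives tried were a replicate block, a fit of 2 groups alone, a filter to brighter genes, an intensity trend with robust prior, both rescalings, the mean of all features and leaving out each array.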

Additional observations from a re-analysis of the deposited data

Results flagged for a closer look

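Smarcd1 has a second feature on the array, which the values above do not use. In Pum2 over IgG that feature differed by 0.619 (limma, adjusted p = 0.0131 over all features), and in Pum2 over input by 0.309 (adjusted p = 0.161). It stands here as a signal in data outside the main measurement.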

How the results depend on the processing

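Of the calls, 15 of 20 in Pum2 over IgG, 26 of 27 in Pum2 over input and 14 of 17 in IgG over input held under every alternative they were run in (16, or 15 for Dpf3, which the filter to brighter genes leaves out), and 0 called members changed direction. The lost ones were Jarid2, Smarcc2, Brd9, Arid1a and Actl6b against IgG, Pcgf2 against input, and Smarca2, Actl6b and Brd7 in IgG over input. Leaving out 1 array gave 13 to 15 higher and 4 to 6 lower members in Pum2 over IgG, 22 to 23 and 4 to 5 in Pum2 over input, and 14 to 15 and 0 to 2 in IgG over input (2 lower with all arrays, 0 without Input replicate 1, 1 without Input replicate 2 or IgG replicate 1 or 2). With the test run on the brighter genes alone (mean at or above the median), 5 members were lower in IgG over input. Same-numbered arrays correlated in their deviations by 0.002 to 0.135 and differently numbered ones by -0.13 to 0.041. Each array correlated best with its own number in Pum2 over input and IgG over input, but not Pum2 replicate 1 or IgG replicate 1 in Pum2 over IgG, which is a hint from the data and not from the design. The replicate block gave 13 higher and 6 lower members in Pum2 over IgG, 23 and 4 in Pum2 over input, and 15 and 2 in IgG over input. Under the block Jarid2 in Pum2 over IgG (adjusted p = 0.0507) and Smarca2 in IgG over input (adjusted p = 0.0526) were no longer called, and Smarca4 in IgG over input was (0.28, adjusted p = 0.0474). Values that changed direction all belong to members not called, and the cause was not tested. After a repeated quantile normalization the reversed values were Arid1b -0.0371, Arid2 -0.0143, Ss18 -9e-04, Cbx2 -0.0169, Kmt2a -0.121 and Ep300 -0.0012 in Pum2 over IgG, Actl6b -0.0365 in Pum2 over input, Smarcd1 0.018, Smarcd2 -0.0042 and Rnf2 0.0107 in IgG over input. With arrays centred on the brighter genes the reversed values were Arid1b -0.025, Arid2 -0.0259, Kmt2a -0.093 and Kmt2e -0.0825 in Pum2 over IgG, Actl6b -0.065 and Cbx7 -0.0089 in Pum2 over input, Smarcd1 0.0058 in IgG over input. With the mean of all features of a gene the reversed values were Phf10 -0.0883 in Pum2 over input, Phf10 -0.0367 in IgG over input. Leaving out 1 array turned the direction in Pum2 over IgG for Phf10 -0.148 to 0.035, Rnf2 -0.118 to 0.0077, Kmt2e -0.0115 to 0.0358, Kmt2a -0.0607 to 0.103 and Smarcc1 -0.116 to 0.0194. For Pum2 over input the ranges were Smarcc1 -0.119 to 0.0615, Cbx2 -0.0721 to 0.0158, Actl6b -0.0304 to 0.045, Bmi1 -0.173 to 0.0629 and Eed -0.0033 to 0.228. For IgG over input the ranges were Rnf2 -0.0957 to 0.0298, Smarcc1 -0.0586 to 0.111, Smarcd2 -0.106 to 0.119, Smarcd1 -0.0745 to 0.0262, Cbx8 -0.168 to 0.0227, Dpf1 -0.0147 to 0.0528, Ezh1 -0.0583 to 0.122 and Suz12 -0.0084 to 0.111. Dpf3 and Cbx7 lie below the median level, where signal limits what can be detected.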
